A study of Homo sapiens with 21 samples.

Results

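The CC chemokines of the secretory phenotype were followed as 6 genes, CCL2, CCL5, CCL7, CCL8, CCL20 and CCL26, which were found by an exact match of the gene symbol. All 6 were among the 16383 genes of the deposited table. RNA had been sequenced from IMR90 cells (an established human fibroblast line from lung, labelled WT), in 7 groups of 3 libraries each. The proliferating group had no treatment per the labels. Every other group had been irradiated, which makes these cells senescent. These cells had then received 5 nM siRNA by transfection, first on day 4 and again on day 7 after the irradiation, and their RNA was taken on day 10. Of these 6 groups, NT3 and NT4 had received the non-targeting siRNAs #3 and #4. The remaining 4 had received siRNA against CCND1 (cyclin D1), CDK4, CDK6, or CDK4 and CDK6 together, called dual knockdown here. NT3 and NT4 were kept apart as separate controls. Because the labels number the controls differently in the titles and in the series text, the titles were followed. Effects of irradiation and of transfection cannot be told apart in comparisons with proliferating cells, and the labels give 1 siRNA name per target without its sequence. The labels do not say whether the libraries of a group came from separate cultures, so p-values measure the spread between these libraries, which may be technical.

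CC chemokines are small secreted proteins with adjacent cysteines near the amino terminus, which bind G protein-coupled receptors on leukocytes and draw these cells towards the source. Senescent fibroblasts are known to secrete several of them as part of the senescence-associated secretory phenotype, a mixture of cytokines, chemokines, proteases and growth factors whose transcription depends largely on NF-kB and C/EBP-beta and is reinforced by IL1 signalling. CCL2, CCL7 and CCL8 are related monocyte attractants, CCL5 attracts T cells and monocytes, CCL20 attracts CCR6-bearing lymphocytes and dendritic cells, and CCL26 attracts eosinophils through CCR3 and is known to respond to IL4 and IL13 through STAT6.

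In the GRCh38 annotation of RefSeq, CCL2 (ENSG00000108691) lies at chr17:34255285-34257203, CCL7 (ENSG00000108688) at chr17:34270221-34272242 and CCL8 (ENSG00000108700) at chr17:34319435-34321402, all on the plus strand and in the same chemokine cluster. CCL5 (ENSG00000271503) lies farther along the same chromosome at chr17:35871491-35880360 on the minus strand. CCL20 (ENSG00000115009) lies at chr2:227813842-227817556 on the plus strand and CCL26 (ENSG00000006606) at chr7:75769524-75791597 on the minus strand. The RefSeq promoter table (GRCh38.p14) matched CCL7, CCL8, CCL20 and CCL26, 4 of the 6 members. Their 250 bases before the start site are printed 5′ to 3′ on the gene's strand, to show which letters the starts of these genes share beside the levels described below. Capitals mark matches to a loose NF-kB-like pattern (GGG, any 5 bases, then CC) and to TATAAA, the TATA box, each on either strand, with overlapping matches joined. The windows are chr2:227813592-227813841 for CCL20, chr17:34269971-34270220 for CCL7, chr17:34319185-34319434 for CCL8 and chr7:75789747-75789996 for CCL26. The CCL26 window belongs to 1 start site that lies inside the RefSeq gene span.
CCL20: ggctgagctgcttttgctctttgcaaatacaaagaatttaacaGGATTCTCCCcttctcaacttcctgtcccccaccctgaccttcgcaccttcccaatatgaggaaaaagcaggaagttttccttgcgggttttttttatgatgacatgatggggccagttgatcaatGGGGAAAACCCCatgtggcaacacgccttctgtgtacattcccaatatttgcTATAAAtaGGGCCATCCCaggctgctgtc
CCL7: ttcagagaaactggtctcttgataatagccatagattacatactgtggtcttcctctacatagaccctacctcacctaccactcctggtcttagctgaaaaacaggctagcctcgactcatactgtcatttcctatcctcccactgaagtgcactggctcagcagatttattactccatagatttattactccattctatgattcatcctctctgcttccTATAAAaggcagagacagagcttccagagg
CCL8: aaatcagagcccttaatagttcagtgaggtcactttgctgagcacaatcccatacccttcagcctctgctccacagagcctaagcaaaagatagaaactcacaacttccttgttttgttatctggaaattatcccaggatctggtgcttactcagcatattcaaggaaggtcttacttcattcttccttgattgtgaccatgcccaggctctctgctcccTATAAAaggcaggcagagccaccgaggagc
CCL26: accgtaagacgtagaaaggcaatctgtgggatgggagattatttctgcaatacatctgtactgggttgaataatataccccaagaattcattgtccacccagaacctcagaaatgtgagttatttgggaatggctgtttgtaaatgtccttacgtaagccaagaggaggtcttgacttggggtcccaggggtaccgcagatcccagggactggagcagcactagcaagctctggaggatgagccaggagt

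CCL20 held 5 matches to the NF-kB-like pattern, 3 of which overlap in the run GGGGAAAACCCC from position -81 to -70, counted back from the start site. The others span -207 to -198 and -21 to -12. The CCL7, CCL8 and CCL26 windows held none, and of 35116 promoter windows of this length 54.4% held at least 1, so the pattern is common. TATAAA began at -30 in CCL7 and CCL8 and at -29 in CCL20, was not in the CCL26 window, and was in 10.7% of all windows. TGANTCA, an AP-1-like pattern, matched once, in CCL7, and was in 6.57% of windows. A STAT6-like pattern (TTC, any 4 bases, then GAA) matched none of the 4 windows and was in 5.38% of all. A match describes letters only and was not tested as a site.

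The depth was 12892442 to 21822152 reads per library, counted over listed genes. NT3 replicate 3 stood apart: the SD of its log2 deviations from its group mean was 0.344, against 0.193 to 0.256 in the other 20 libraries. The fold changes of CCL2, CCL20 and CCL26 against NT3, and the counts of the gene lists, are therefore also given without it. Values of single list genes include it unless stated. Replicate numbers follow the column order of the table and are names only. The targeted transcripts were left at 8.47 to 22.3% of either control's mean in the groups meant to lack them. All 8 fibroblast markers reached 10 in at least 1 library, and their sum per library ran from 536634 in NT3 to 972412 in dual knockdown. Of the leukocyte markers, the defining PTPRC, CD3E and MS4A1, and also LYZ, were under 10 in every library. The leukocyte list of 8 genes summed to 654 to 688 in proliferating cells, 894 to 1006 in NT3, 1272 to 1423 in NT4, 1506 to 1610 in CDK4 knockdown and 884 to 1130 in the other 3 knockdown groups, nearly all of it from CD68, CD14 and ITGAM. The 4 endothelial markers summed to 7.09 to 9.61 in proliferating cells and 16.0 to 48.2 in irradiated groups, and the 4 epithelial markers to 14.9 to 15.9 and 14.5 to 52.9. The leukocyte and endothelial sums were thus higher in every irradiated group, as were the means of CCL2, CCL20 and CCL26. CCL5 and CCL8 held 0 reads in some of these groups. The part of these marker sums in the results was not tested.

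The values are normalised read counts, that is reads divided by 1 size factor per library. CCL2 was far above the other members. Per kilobase of the GENCODE MANE transcript, its mean normalised count was 3264 in NT3 and 2191 in NT4, against 158 and 42.9 for CCL20, 33.3 and 37.5 for CCL26, 6.38 and 9.57 for CCL7, 1.29 and 0.376 for CCL8, and 0.311 and 0.25 for CCL5. CCL5, CCL7 and CCL8 were under 10 in all 21 libraries. CCL20 and CCL26 were under 10 in 7 libraries each, and CCL2 in 0. A gene entered the test when 3 or more libraries held a value of 10 or above, which admitted 11579 genes and the 3 members CCL2, CCL20 and CCL26. CCL20 and CCL26 passed this filter only through irradiated groups, since proliferating cells held almost none of either. Fold changes below are limma estimates on the log2(value + 1) scale, which understates changes of low genes, and a gene was called at a Benjamini-Hochberg adjusted p under 0.05 over all tested genes within a comparison. All 21 pairs of groups were compared.

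CCL2, a monocyte attractant and the member with the most RNA, was expressed in every group and was highest in NT3 and CCND1 knockdown. Proliferating libraries held normalised counts of 976, 899 and 900.0. NT3 libraries held 2324, 1903 and 3028, and NT4 libraries 1446, 1948 and 1477. Every control library was thus above every proliferating library, and NT4 overlapped the lower end of NT3. Of all tested genes, 65.8% did not overlap between NT3 and proliferating cells, and 72.5% between NT4 and proliferating cells. CCND1 knockdown held 1942, 2085 and 3098 and CDK4 knockdown 1352, 1082 and 1352. CDK6 knockdown held 1448, 1689 and 1164 and dual knockdown 1125, 1157 and 1246. The 3 groups with siRNA against a kinase lay between proliferating cells and NT3 without overlapping either. For these groups 72.7% to 75.3% of all tested genes did not overlap proliferating cells, and 33.9% to 48.4% did not overlap NT3. In bulk RNA such as this, fewer expressing cells and less RNA per cell cannot be told apart.

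**Figure D1:**
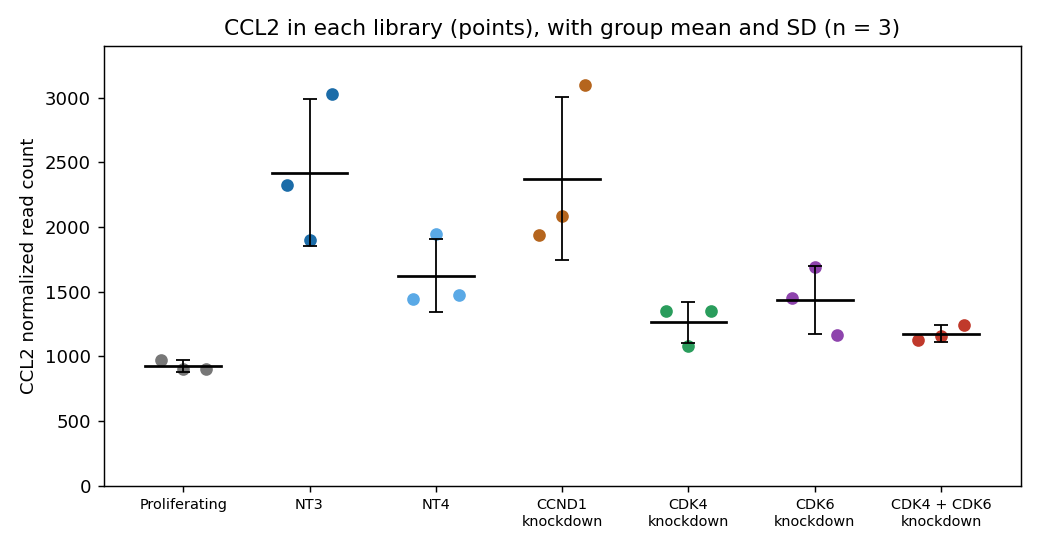
Normalised read count of CCL2 (vertical axis, linear from 0) in each library by group (horizontal axis). Points are libraries, black lines group means and bars the SD of 3 libraries; the highest libraries are 3028 in NT3 and 3098 in CCND1 knockdown, and dual knockdown stays between 1125 and 1246.

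Against proliferating cells at 925 ± 43.9 (SD, n = 3), CCL2 rose in NT3 (2419 ± 568; log2 fold change 1.36 with an SE of 0.17 and a limma adjusted p of 3.24e-07) and in NT4 (1624 ± 282; 0.80, SE 0.17, adjusted p = 0.000298). Without NT3 replicate 3 the rise in NT3 was 1.19. It was also called higher in CCND1 knockdown (1.33), CDK6 knockdown (0.62) and CDK4 knockdown (0.44, SE 0.17, limma adjusted p = 0.0271). In dual knockdown the difference from proliferating cells was 0.35 (SE 0.17, limma adjusted p = 0.076), which did not pass. The libraries of these groups did not overlap, as was so for 73.1% of all tested genes. The CDK4 knockdown call was lost without proliferating replicate 2 or 3 or CDK4 knockdown replicate 1 or 3 (0.39 to 0.42). Centring each library on its median moved all comparisons with proliferating cells up by 0.107 to 0.132 and brought dual knockdown past the threshold (0.48). A fit of dual knockdown and proliferating cells alone also did so (0.35), and over the alternatives its adjusted p ran from 7.38e-05 to 0.179.

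The 2 controls themselves differed for CCL2, which was lower in NT4 than in NT3 (log2 fold change -0.56, SE 0.17, limma adjusted p = 0.0163). This call was lost without NT3 replicate 3 (-0.39), NT4 replicate 1 (-0.49) or NT4 replicate 3 (-0.50), and over 14 alternatives adjusted p ran from 0.00252 to 0.0914. CCL2 therefore read differently against each control. In CCND1 knockdown (2375 ± 630, SD, n = 3) it was within the spread of NT3 (log2 fold change -0.03, 95% interval -0.38 to 0.32, limma adjusted p = 0.901) and higher than NT4 (0.53, SE 0.17, adjusted p = 0.03). The latter was not called without NT4 replicate 1 (0.45), NT4 replicate 3 (0.47) or CCND1 knockdown replicate 3 (0.32). In CDK4 knockdown (1262 ± 156) CCL2 fell against NT3 (-0.92, SE 0.17, limma adjusted p = 0.00037), and against NT4 the difference was -0.36 (95% interval -0.71 to -0.01, adjusted p = 0.2). In CDK6 knockdown (1434 ± 263) it fell against NT3 (-0.74, SE 0.17, limma adjusted p = 0.00109), and against NT4 the difference was -0.18 (95% interval -0.53 to 0.17, adjusted p = 0.452). In dual knockdown (1176 ± 62.9) it fell against NT3 (-1.01, SE 0.17, limma adjusted p = 4.47e-05) and against NT4 (-0.45, SE 0.17, adjusted p = 0.0396). Without NT3 replicate 3 the falls against NT3 were -0.74, -0.57 and -0.84, all called, and the CCND1 knockdown difference was 0.14, not called. The dual knockdown fall against NT4 was lost without NT4 replicate 2 (-0.31) and without each dual knockdown replicate in turn (-0.42, -0.44 and -0.50). It was also lost without the filter and with a block by header codes (-0.45 in each), and over 14 alternatives adjusted p ran from 0.000757 to 0.195.

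Set directly against one another, the groups with kinase siRNA were below CCND1 knockdown for CCL2, by log2 fold changes of -0.89 in CDK4 knockdown, -0.71 in CDK6 knockdown and -0.98 in dual knockdown (limma adjusted p = 0.000473, 0.00659 and 0.000204). None of these 9 libraries overlapped the CCND1 libraries. This was so for 45.4% of all tested genes in CDK4 knockdown, 36.5% in CDK6 knockdown and 40.9% in dual knockdown. The CDK6 difference was not called without CCND1 knockdown replicate 3 (-0.51) or CDK6 knockdown replicate 3 (-0.57). Among the 3 kinase groups CCL2 was not called in any pair, with differences of 0.17 (95% interval -0.17 to 0.52) for CDK6 against CDK4 knockdown, -0.10 (-0.45 to 0.25) for dual against CDK4 knockdown and -0.27 (-0.62 to 0.08) for dual against CDK6 knockdown. In order of mean level, CCL2 ran NT3, CCND1 knockdown, NT4, CDK6 knockdown, CDK4 knockdown, dual knockdown and proliferating. Of the 6 neighbouring pairs in that order, CCND1 knockdown and NT4 were called different and the other 5 were not.

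CCL20, the ligand of CCR6, spanned the widest range of the members. Proliferating libraries held 0, 0 and 0.886, from 0, 0 and 1 read. NT3 libraries held normalised counts of 97.6, 118 and 180, and NT4 libraries 27.8, 51.6 and 27.9, so the controls did not overlap each other, as was so for 34.9% of all tested genes. CCND1 knockdown held 24.5, 21.3 and 43.2, which overlapped NT4. CDK4 knockdown held 70.1, 75.1 and 91.3, between the controls and overlapping neither. Of all tested genes, 33.9% did not overlap between CDK4 knockdown and NT3, and 33.8% between CDK4 knockdown and NT4. CDK6 knockdown held 8.14, 9.32 and 0.958, the last from 1 read, and dual knockdown 12.1, 10.9 and 8.01. The groups with CDK6 siRNA lay below every library of the other irradiated groups. In these comparisons 36.5% to 52% of all tested genes did not overlap, in either direction.

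**Figure D2:**
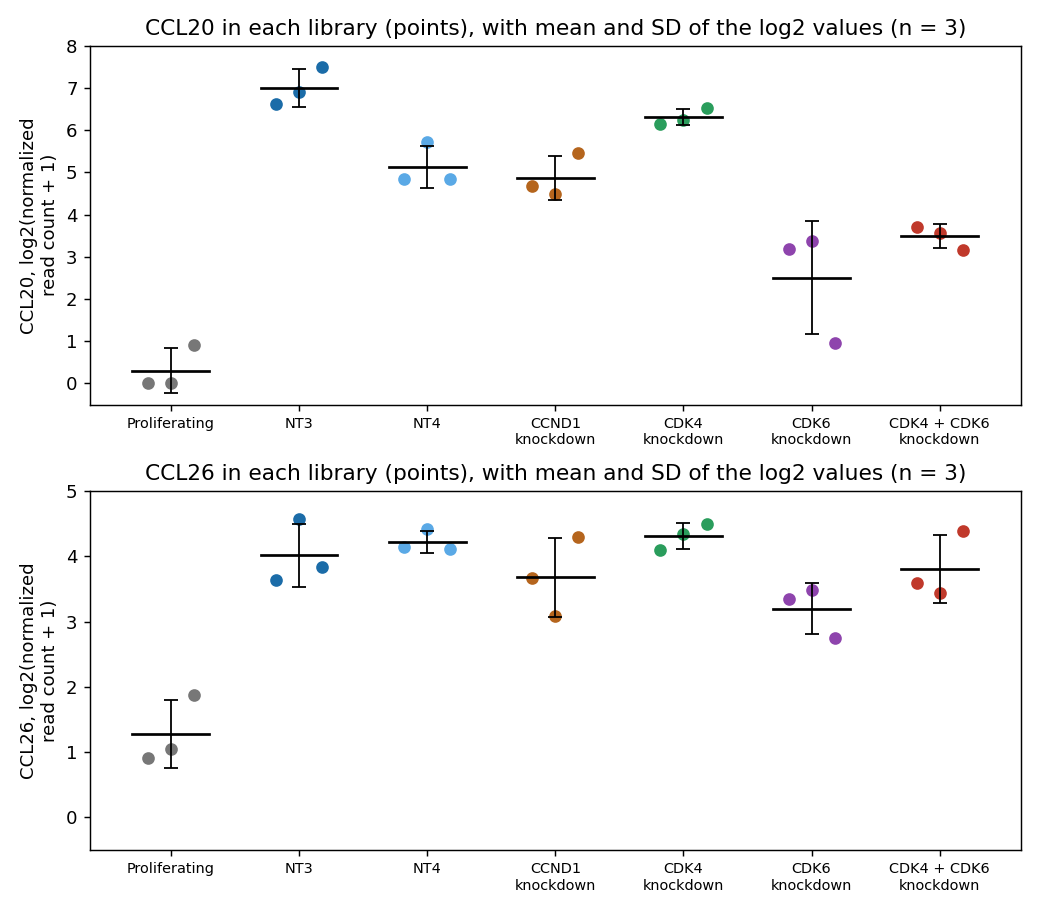
Log2 of the normalised read count plus 1 for CCL20 (upper panel) and CCL26 (lower panel) in each library by group. Points are libraries, black lines means and bars the SD of 3 log2 values; CCL20 is lowest among irradiated groups in CDK6 and dual knockdown, while the irradiated groups of CCL26 lie close together.

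CCL20 was higher than in proliferating cells in every irradiated group, by a log2 fold change of 6.70 in NT3 and 6.46 without NT3 replicate 3. It entered the test only through irradiated groups, so no p-value is given for these differences. With 1 read in all proliferating libraries the size is imprecise: the ratio of read rates was 411 for NT3 (409 reads; exact 95% interval 73.4 to 16278, counting error only) and 19.7 for CDK6 knockdown (19 reads; 3.13 to 819). NT4 (35.8 ± 13.7, SD, n = 3) was below NT3 (132 ± 42.6) by a log2 fold change of -1.87 (SE 0.47, limma adjusted p = 0.0056). Without NT3 replicate 3 this was -1.62 and still called. With a pseudocount of 0.1 it did not pass (-1.90), and over 13 alternatives adjusted p ran from 4.77e-05 to 0.0642.

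CDK6 siRNA was followed by the lowest CCL20 levels among irradiated groups. CCL20 was under 10 in every CDK6 knockdown library and in dual knockdown replicate 3. It passed the filter mainly through the other irradiated groups, so the p-values for CDK6 and dual knockdown carry that limit. Both CDK6 knockdown falls were called in all 13 alternatives run for each, which include a fit without the filter. In CDK6 knockdown (6.14 ± 4.53, SD, n = 3) the log2 fold change was -4.50 against NT3 (SE 0.47, limma adjusted p = 1.43e-07) and -2.63 against NT4 (SE 0.47, adjusted p = 0.000218). In dual knockdown (10.4 ± 2.12) it was -3.52 against NT3 (SE 0.47, limma adjusted p = 3.43e-06) and -1.65 against NT4 (SE 0.47, adjusted p = 0.0092). Without NT3 replicate 3 the falls against NT3 were -4.25 and -3.27. Without CDK6 knockdown replicate 3, which held 1 read, the falls in CDK6 knockdown were -3.73 against NT3 and -1.86 against NT4, both called. The dual knockdown fall against NT4 was not called without NT4 replicate 2 (-1.36) or with a pseudocount of 0.1 (-1.74). In CCND1 knockdown (29.7 ± 11.8) CCL20 fell against NT3 (-2.13, SE 0.47, limma adjusted p = 0.00133; -1.89 without NT3 replicate 3), and against NT4 the difference was -0.27 (95% interval -1.25 to 0.72, adjusted p = 0.753). CDK4 knockdown (78.8 ± 11.1) differed by -0.70 from NT3 (95% interval -1.68 to 0.29, limma adjusted p = 0.299; -0.45 without NT3 replicate 3) and by 1.17 from NT4 (0.18 to 2.16, adjusted p = 0.123). The latter was called higher by edgeR's quasi-likelihood test on recovered reads (1.13, adjusted p = 0.0245), in a fit of these 2 groups alone (1.17) and with a pseudocount of 10 (0.99), and over 13 alternatives adjusted p ran from 0.0039 to 0.367.

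Without the controls, CCL20 was lower in CDK6 than in CDK4 knockdown by a log2 fold change of -3.80 (SE 0.47, limma adjusted p = 1.87e-06) and lower in dual than in CDK4 knockdown by -2.82 (SE 0.47, adjusted p = 8.92e-05). Both calls held in all 13 alternatives run for each, with -3.03 for CDK6 against CDK4 knockdown without CDK6 knockdown replicate 3. The limit from the filter given above also holds for the p-values of CDK6 and dual knockdown here. Dual against CDK6 knockdown gave 0.98 (95% interval -0.01 to 1.96, limma adjusted p = 0.193), so no further fall with both siRNAs was called. CDK6 knockdown replicate 3 held 1 read of CCL20, and without it this difference was 0.21. CCND1 knockdown lay above CDK6 knockdown (CDK6 against CCND1 knockdown -2.36, limma adjusted p = 0.00183; -1.59 without CDK6 knockdown replicate 3). CDK4 knockdown was higher than CCND1 knockdown (1.44, adjusted p = 0.0315) and dual knockdown lower than it (-1.38, adjusted p = 0.0429), but the first was not called without CCND1 knockdown replicate 1 or 2 or without any CDK4 knockdown replicate (1.24 to 1.52), nor the second with any 1 library of either group left out (-1.58 to -1.09). In order of mean level CCL20 ran NT3, CDK4 knockdown, NT4, CCND1 knockdown, dual knockdown, CDK6 knockdown and proliferating. Of the neighbouring pairs of irradiated groups, CCND1 and dual knockdown were called different and the other 4 were not. CDK6 knockdown against proliferating cells is left out, since CCL20 passed the filter only through irradiated groups.

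CCL26, the eosinophil attractant, was higher in all irradiated groups than in proliferating cells, and few of its differences among irradiated groups passed the test. Proliferating libraries held normalised counts of 0.873, 1.06 and 2.66, from 1, 1 and 3 reads. NT3 held 11.4, 22.7 and 13.3 and NT4 16.7, 20.4 and 16.4, which overlap. CCND1 knockdown held 11.7, 7.47 and 18.6, CDK4 knockdown 16.1, 19.3 and 21.6, CDK6 knockdown 9.16, 10.2 and 5.75, and dual knockdown 11.04, 9.83 and 20.0. The CDK6 knockdown libraries lay below all libraries of NT3, NT4 and CDK4 knockdown and overlapped those of CCND1 and dual knockdown. Of all tested genes, 48.4% did not overlap between CDK6 knockdown and NT3, 48.9% with NT4 and 51.7% with CDK4 knockdown.

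Every irradiated group was higher than proliferating cells for CCL26, from a log2 fold change of 1.92 in CDK6 knockdown (SE 0.39) to 3.04 in CDK4 knockdown (SE 0.39). The rise was 2.74 in NT3 (2.83 without NT3 replicate 3) and 2.95 in NT4. CCL26 entered the test only through irradiated groups, so no p-value is given for these differences. The ratio of read rates was 10.9 for NT3 (54 reads against 5; exact 95% interval 4.38 to 34.8, counting error only). NT4 differed from NT3 by 0.21 (95% interval -0.60 to 1.03, limma adjusted p = 0.719; 0.13 without NT3 replicate 3). In CDK6 knockdown (8.39 ± 2.35, SD, n = 3) the difference was -0.82 from NT3 (95% interval -1.63 to -0.0026, limma adjusted p = 0.0931) and -1.03 from NT4 (-1.85 to -0.22, adjusted p = 0.0507). edgeR's quasi-likelihood test called the second (-1.07, adjusted p = 0.0444), and over 13 alternatives adjusted p ran from 0.0347 to 0.194. The other 3 knockdowns differed by -0.55 to 0.30 from either control and none was called. Without NT3 replicate 3 the differences from NT3 were -0.90 in CDK6, -0.42 in CCND1, 0.21 in CDK4 and -0.29 in dual knockdown, none called. Of the 6 pairs of knockdowns, CDK6 against CDK4 knockdown was called (-1.11, SE 0.39, limma adjusted p = 0.0309), and this was lost without CDK4 knockdown replicate 2 or 3 or CDK6 knockdown replicate 1 or 3 (-1.19 to -0.89). In order of mean level CCL26 ran CDK4 knockdown, NT4, NT3, dual, CCND1 and CDK6 knockdown and proliferating. None of the neighbouring pairs of irradiated groups was called. CDK6 knockdown against proliferating cells is left out, since CCL26 passed the filter only through irradiated groups.

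CCL7, a monocyte attractant encoded beside CCL2, was detected at a few reads per library. NT3 libraries held 8, 5 and 3 reads (normalised counts 8.30, 3.55 and 3.64) and NT4 libraries 7, 7 and 9 reads (7.79, 6.81 and 8.66). CCND1 knockdown held 2, 4 and 4 reads and CDK4 knockdown 4, 4 and 5. CDK6 knockdown held 5, 0 and 0 reads, dual knockdown 1, 2 and 0, and proliferating cells 1, 0 and 0. Summed over libraries, CCL7 had 16 reads in NT3 (exact Poisson 95% interval 9.15 to 26.0), 23 in NT4 (14.6 to 34.5), 5 in CDK6 knockdown (1.62 to 11.7) and 3 in dual knockdown (0.619 to 8.77). The ratio of read rates in dual knockdown was 0.213 against NT3 (exact 95% interval 0.0397 to 0.742) and 0.137 against NT4 (0.0264 to 0.454), and in CDK6 knockdown 0.322 (0.0923 to 0.921) and 0.208 (0.0618 to 0.559). These intervals cover counting error only and not the spread between libraries, since 1 CDK6 library supplied all 5 reads. CCL7 did not reach the filter. In a fit without the filter limma called it lower in CDK6 knockdown (log2 fold change -1.67 against NT3 and -2.26 against NT4) and in dual knockdown (-1.62 and -2.21), at adjusted p of 0.00557 to 0.0301.

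**Figure D3:**
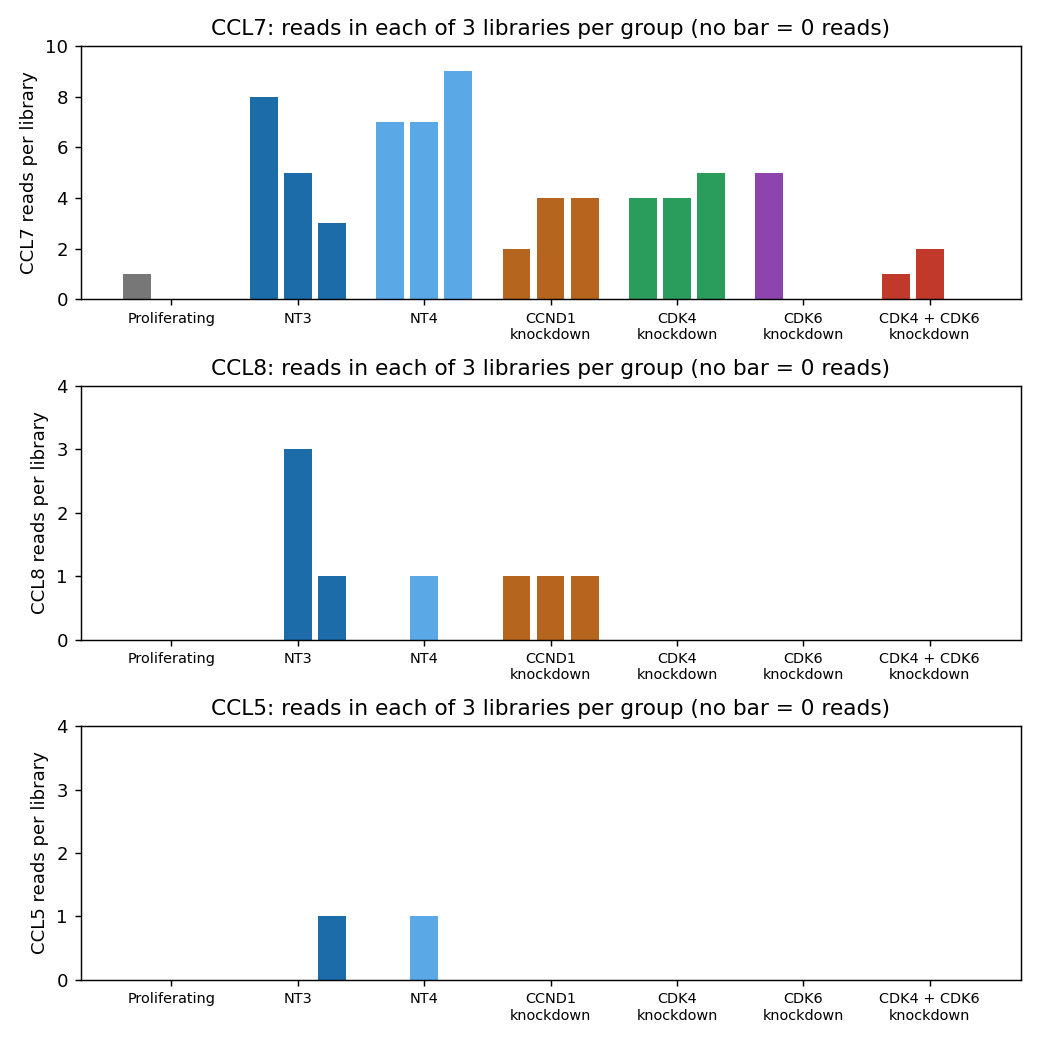
Reads of CCL7, CCL8 and CCL5 (vertical axes, from 0) in each of the 3 libraries of each group (horizontal axis); a missing bar is 0 reads. No library holds more than 9 reads of CCL7, 3 of CCL8 or 1 of CCL5.

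CCL8, the third monocyte attractant of the cluster, had 8 reads in all libraries together. NT3 held 0, 3 and 1 of them, NT4 0, 1 and 0, and CCND1 knockdown 1 in each library. Proliferating cells and CDK4, CDK6 and dual knockdown held 0 reads (exact Poisson 95% interval 0 to 3.69 reads in each group). CCL5, the T cell attractant, had 2 reads, 1 in NT3 and 1 in NT4, and 0 in the other 5 groups. Neither gene reached the filter. In the fit without the filter CCL5 had no call, and CCL8 was called at limma adjusted p of 0.0186 to 0.049 in 5 comparisons: higher in NT3 and in CCND1 knockdown than in proliferating cells, lower in CDK6 and dual knockdown than in NT3, and lower in CDK4 than in CCND1 knockdown. Those calls rest on at most 4 reads in a group, where groups at 0 show no spread, and are given as values only.

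**Figure D4:**
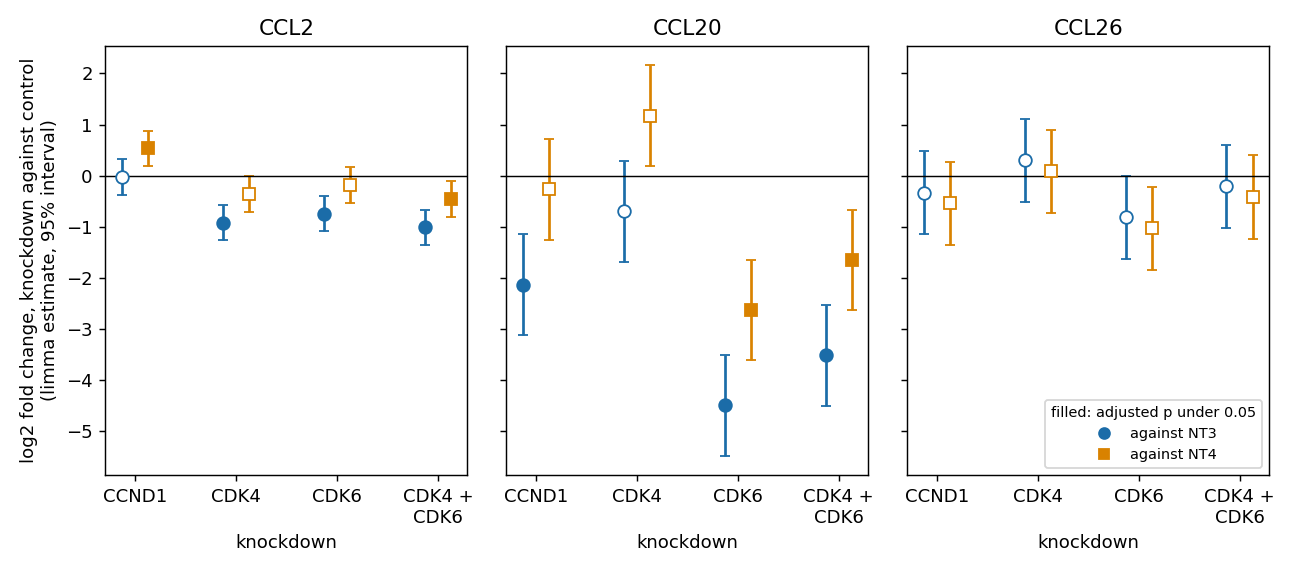
Limma log2 fold change (vertical axis) with its 95% interval for each knockdown (horizontal axis) against NT3 (circles) and against NT4 (squares), for CCL2, CCL20 and CCL26. Filled symbols have an adjusted p under 0.05; CCL20 in CDK6 and dual knockdown and CCL2 in dual knockdown are filled and below 0 against both controls.

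Members are counted here only among irradiated groups, because CCL20 and CCL26 entered the test through those groups and a count against proliferating cells would follow from the filter. CCL20 was under 10 in every CDK6 knockdown library and in dual knockdown replicate 3. It passed the filter mainly through the other irradiated groups, so counts of members lower in CDK6 and dual knockdown carry that limit as well. NT4 was lower than NT3 for 2 of 3, where 13.1% of genes were lower. Against NT3, the members called lower were 1 of 3 in CCND1 knockdown (18.3% of genes), 1 of 3 in CDK4 knockdown (12.2%), 2 of 3 in CDK6 knockdown (23.4%) and 2 of 3 in dual knockdown (21.9%). Against NT4, 1 of 3 was higher in CCND1 knockdown (10.4%), 0 of 3 were called in CDK4 knockdown (11.6% in either direction), 1 of 3 was lower in CDK6 knockdown (15.4%) and 2 of 3 were lower in dual knockdown (18.3%). For CDK4 knockdown against NT4, limma gave 2 members at an unadjusted p under 0.05 and edgeR called 1. The 4 comparisons with a control share its 3 libraries and are not independent of one another.

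Called in the same direction against both controls were CCL20 in CDK6 knockdown, lower (10.9% of genes), and CCL2 and CCL20 in dual knockdown, lower (12.3%). No member was so called in CCND1 knockdown (6.14% of genes higher and 5.45% lower) or CDK4 knockdown (2.05% and 2.63%). Among direct comparisons, 2 of 3 members were called for CDK4, CDK6 and dual against CCND1 knockdown (23.3%, 12.2% and 20.3% of genes in either direction) and for CDK6 against CDK4 knockdown (34.8%). The count was 1 for dual against CDK4 knockdown (30.6%) and 0 for dual against CDK6 knockdown (13% of genes; 0 at an unadjusted p under 0.05 in limma and 0 by edgeR). The dual knockdown was also set against what the single CDK4 and CDK6 knockdowns add up to. No member departed from that sum with NT3 as control (16.4% of genes) or NT4 (3.93%); limma gave 2 and 0 members at an unadjusted p under 0.05, and edgeR called 0 in both. With NT3 the departures were 0.65 for CCL2 (SE 0.24, limma adjusted p = 0.0657) and 1.67 for CCL20 (SE 0.67, adjusted p = 0.0888). With NT4 they were 0.09 and -0.19. Without NT3 replicate 3 they were 0.47 and 1.43 with NT3 as control, not called. Without CDK6 knockdown replicate 2 both were called with NT3 as control (0.78 and 2.10), and without NT3 replicate 2 CCL2 was (0.81).

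Across the 18 irradiated libraries the 3 tested members were correlated to differing degrees. Pearson's r of the log2 values was 0.50 between CCL2 and CCL20, 0.65 between CCL20 and CCL26 and 0.10 between CCL2 and CCL26, given as descriptions, since libraries of a group share their treatment. CCL26 had 6 to 32 reads per irradiated library and CCL20 as few as 1. Counting error at such levels lowers r, so a low r does not show that the genes move apart. For each member the 3 genes of most like pattern were searched among tested genes with a mean of at least 100 in these libraries. CCL20 was most like RIPK2 (r = 0.96), a kinase of NOD receptor signalling, PLAU (0.96), the urokinase plasminogen activator, and AKR1B1 (0.96), aldose reductase. PLAU had mean normalised counts of 48797 in NT3, 36162 in NT4, 28507 in CCND1, 44907 in CDK4, 15725.5 in CDK6 and 21399.5 in dual knockdown, in the same order of groups as CCL20. CCL2 was most like C1QTNF1 (0.94), a secreted protein of the C1q and TNF family, BID (0.90), a proapoptotic BCL2 family member, and SRD5A3 (0.85), a polyprenol reductase. C1QTNF1 went from a mean of 930 in NT3 and 846 in CCND1 knockdown to 590 in dual knockdown, in the same order of groups as CCL2. CCL26 had weaker matches, ARID3A (0.81), HIC2 (0.79) and RAB5C (0.79), the highest of 9055 genes searched.

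**Figure D5:**
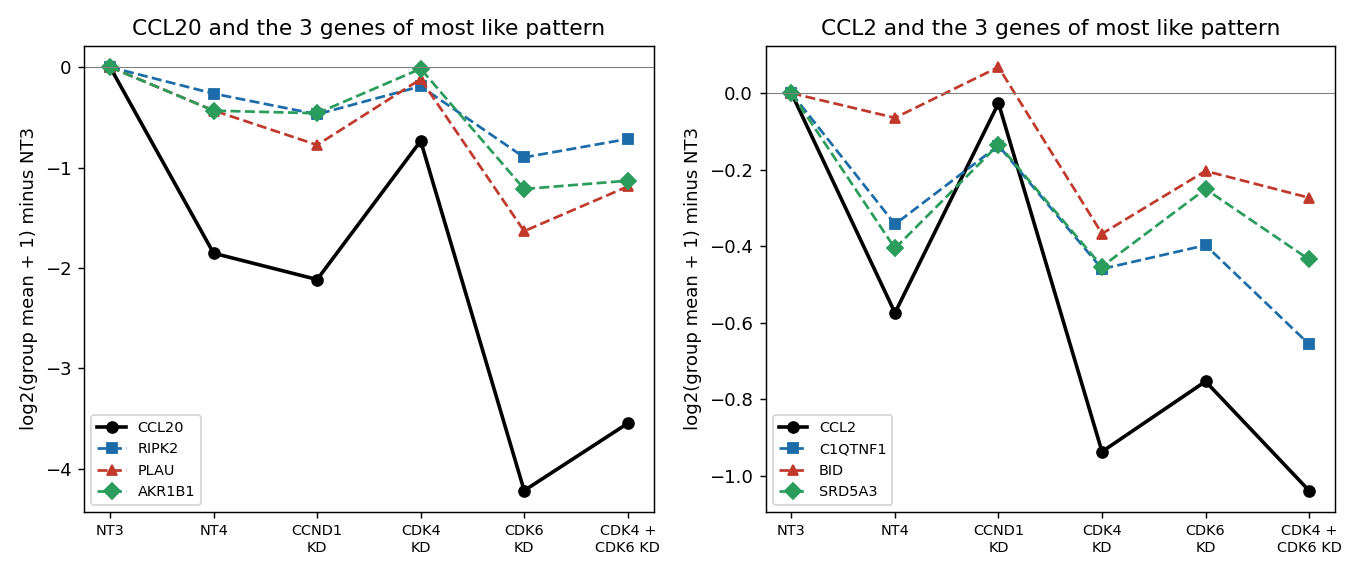
Log2 of the group mean plus 1, minus that of NT3 (vertical axes), across irradiated groups for CCL20 and CCL2 (black) and the 3 genes most like each (colours). The lines of the CCL20 panel share their order of groups and differ in size: CCL20 falls by over 4 in CDK6 knockdown and its neighbours by less than 2.

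No other CC ligand passed the filter. Of 22 further CC ligand genes listed for this purpose, 19 were in the table, 8 of these were at 0 in every library, and none reached 10 in 3 libraries. The highest mean over the 21 libraries was 5.23 for CCL28, a mucosal chemokine, followed by 1.44 for CCL24, an eotaxin like CCL26. CCL2, CCL20 and CCL26 were thus the CC ligands of the table that passed the filter. Of 15 receptor genes, which include the atypical receptors that take up chemokines without classical signalling, 14 were in the table and 5 were tested: ACKR3, ACKR4, CCR7, CCR10 and CCRL2. All 5 were called higher in NT3, and 4 of 5 in NT4, than in proliferating cells, beside 31.8% and 30.1% of all genes. Without NT3 replicate 3 all 5 were again higher in NT3 (32.8% of all genes). Whether some receptors passed the filter only through irradiated groups was not tested. ACKR3, a scavenging receptor and the most abundant of the 5, was higher in NT3 and NT4 than in proliferating cells, by log2 fold changes of 1.58 and 1.35. Against NT3 the knockdowns gave 1 call, CCR7 lower in dual knockdown (-1.36, SE 0.44, limma adjusted p = 0.0162). Without NT3 replicate 3 it was -1.50 and again the only call. Of all genes, 21.9% were lower in that comparison (22.1% without that replicate), which is near 1 of 5 receptors. The other knockdowns gave 0 calls against NT3, beside 25.6% to 46.3% of all genes in either direction. Against NT4 there were 0 calls, beside 11.6% to 36.7% of all genes. CCR6, the receptor of CCL20, had a mean normalised count of 1.59 over all libraries and CCR3, the receptor of CCL26, 0.147, so neither was tested.

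Of 30 genes listed for the induction of these chemokines, which cover NF-kB and its inhibitors, IL1 and TNF signalling, C/EBP, AP-1, interferon and STAT factors, 28 were tested. In NT3 21 rose and 2 fell against proliferating cells, where 31.8% of all tested genes were called higher and 35.2% lower, and the list's median log2 fold change was 0.59 against -0.03 over all genes. In NT4 20 rose and 2 fell (30.1% and 33.2% of all genes). Of all calls for NT3 against proliferating cells 47.4% were higher, and 57.6% after median centring. NT4 differed from NT3 by 2 higher and 8 lower (14.7% and 13.1% of all genes). Against NT3, the calls in CCND1 knockdown were 1 higher and 16 lower, where 19.9% and 18.3% of all genes were called. In CDK4 knockdown they were 4 and 3 (13.4% and 12.2%), in CDK6 knockdown 2 and 18 (23% and 23.4%) and in dual knockdown 3 and 17 (22.7% and 21.9%). Against NT4 the calls were 2 and 9 in CCND1 knockdown (10.4% and 8.85% of all genes), 2 and 0 in CDK4 knockdown (5.66% and 5.93%), 2 and 19 in CDK6 knockdown (15.2% and 15.4%) and 2 and 20 in dual knockdown (18.4% and 18.3%). The list medians against NT4 were -0.24, 0.06, -0.50 and -0.63, and those of all genes -0.0061, -0.0022, -0.011 and -0.0019. Without NT3 replicate 3 the calls against NT3 were 1 and 15 in CCND1 knockdown (18.8% and 16.6% of all genes) and 2 and 4 in CDK4 knockdown (13.1% and 12.3%). They were 2 and 19 in CDK6 knockdown (22.4% and 21.6%) and 3 and 18 in dual knockdown (24.1% and 22.1%). In that fit NT4 differed from NT3 by 1 and 8 (12.8% and 11.9%), and NT3 from proliferating cells by 22 and 2 (32.8% and 36%). Among the most abundant genes of the list, FOSL1, an AP-1 subunit, fell against NT4 in CDK6 and dual knockdown (log2 fold changes of -0.92 and -0.71) and in CCND1 knockdown (-0.55), and JUN, another, by -0.48 and -0.27 in CDK6 and dual knockdown. STAT3, which carries IL6-family signals, fell against NT4 in CDK6 knockdown (-0.42) and was not called in dual knockdown (0.11).

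IL1A, IL1B and TNFAIP3 of the same list were singled out after their values were seen. IL1A and IL1B encode the cytokines that act on the IL1 receptor, and TNFAIP3 encodes a feedback inhibitor of NF-kB. Like CCL20, all 3 were lower in NT4 than in NT3, by log2 fold changes of -1.13, -1.47 and -0.66 (-1.13, -1.34 and -0.80 without NT3 replicate 3, when IL1A was no longer called). In CDK6 knockdown they fell against NT4 by log2 fold changes of -2.53, -2.64 and -1.84 (limma adjusted p = 4.86e-05, 1.44e-07 and 1.6e-06), and in dual knockdown by -2.93, -3.24 and -1.71. In CDK4 knockdown they stood at 0.49, 0.62 and 0.50 against NT4, none called, where CCL20 stood at 1.17. CCL26, a STAT6 target in other cells, stood at -1.03 in CDK6 knockdown and -0.42 in dual knockdown against NT4; limma did not call either, and edgeR called the first, as given above. STAT6, IL13RA1 and IL4R of the same list, also named after their values were seen, went both ways. In CDK6 knockdown against NT3, without NT3 replicate 3, STAT6 and IL13RA1 were called higher (0.15 and 0.17). IL4R was called lower there (-1.10). A link of these genes to CCL26 was not tested. No correlation between the comparisons of this paragraph is given, since they share control libraries.

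The list of genes for processing and binding holds proteases that trim chemokines and the proteoglycans that hold them at the cell surface. Of its 12 genes 11 were tested, and calls went both ways. In NT3 7 were higher and 4 lower than in proliferating cells, and in NT4 6 and 5, read beside 67% and 63.3% of all genes called in either direction. Without NT3 replicate 3 the NT3 counts were also 7 and 4. Against NT4 the calls were 3 higher and 5 lower in CCND1 knockdown, 0 and 0 in CDK4 knockdown, 2 and 6 in CDK6 knockdown and 4 and 5 in dual knockdown. Against NT3 they were 4 and 4, 4 and 3, 4 and 7, and 4 and 5, and without NT3 replicate 3 they were 5 and 4, 5 and 2, 4 and 7, and 5 and 5. The shares of all genes called higher and lower in these comparisons, with and without NT3 replicate 3, are those given for the induction list. MMP14, a membrane-bound protease, fell in CDK6 knockdown against both controls (-0.58 and -0.43). MMP2, a gelatinase that cleaves CCL7 among its substrates, was higher than NT3 (0.26) and not called against NT4 (-0.05). GPC1, a glypican, was higher in every knockdown than in NT3 (0.70 to 0.94) but higher than NT4 only in dual knockdown (0.20), and NT4 was itself above NT3 (0.74).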

How the data were processed

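Bulk RNA-seq was available for 21 libraries of IMR90 cells. The deposited values are a signal per gene that the authors had divided by 1 factor per library; whole reads could be recovered from the steps between low values (100% of values whole within 0.1; in 1 library the step was close to 1 read). The submitters' processing notes name Trimmomatic 0.38.1, HISAT2 2.2.1, featureCounts 2.0.3, FastQC 0.74, MultiQC, DESeq2 2.11.40.8 and hg38. Their settings, the annotation, strand and treatment of reads shared by similar genes are not given in the sources used here. The table ends at Entrez identifier 140467, so genes with higher identifiers were not analysed here.

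The 11579 of 16383 genes with 10 or more in 3 or more libraries were tested on log2(value + 1) with limma 3.58.1 (R 4.3.3), with 1 mean per group, a trended prior, two-sided tests and Benjamini-Hochberg adjustment at 0.05 within each of 21 pairwise comparisons and 2 departures from additivity. The fit was tested on simulated data. edgeR 4.0.16 on the recovered reads was an alternative, beside pseudocounts of 0.1 and 10, no filter, a mean of at least 100, median centring, fits of the compared groups alone and leaving out each library. Intervals on reads are exact at 95% and cover counting error only. The members and gene lists were chosen with earlier results of these data known. Named were the 6 members, up to 4 most abundant genes per list (some results are not reported here), and the 3 genes of highest Pearson correlation with CCL2, CCL20 and CCL26. Columns carry no replicate number, so numbers follow column order.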

Additional observations from a re-analysis of the deposited data

How the results depend on the processing

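Of 69 gene comparisons, 46 kept their direction and their side of the threshold in every alternative run, as did 870 of 938 single values. Both counts include all comparisons of CCL20 and CCL26 with proliferating cells, each the same in all 12 alternatives run for it. Those outcomes follow in part from the filter and do not speak for stability. The cause of the changes below was not tested unless the setting itself gives it. The columns carry no replicate number from the labels, so libraries were not paired by such numbers. Runs of codes in the column headers, each with 1 library of every irradiated group, were fitted as a replicate block, which was chosen after seeing the data. Of 45 pairs of libraries of the same run, 1 had correlated deviations over 0.1. With that block, members called became 2 for CDK6 knockdown against NT4 and 1 for dual knockdown against NT4.

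Other counts of members called moved as follows. They show how calls move with the setting and not how members stand beside all genes, whose shares are mostly left out. Counts against proliferating cells follow in part from the filter where it was used. With a pseudocount of 0.1 the count was 1 for NT4 against NT3, dual knockdown against NT4, CDK4 and dual against CCND1 knockdown, and CDK6 against CDK4 knockdown. With a pseudocount of 10, and with edgeR, it was 1 for CDK4 knockdown and 2 for CDK6 knockdown against NT4. In these comparisons edgeR called 1426 and 3632 of the 11579 tested genes. With the compared groups fitted alone it was 1 for NT4 against NT3, 2 for CDK4 and for CDK6 knockdown against NT4, and 3 for dual knockdown against proliferating cells, as with median centring. Without the filter all 6 members were tested among 15243 genes, which brought in CCL7 and CCL8: the count was 5 for NT3 and CCND1 knockdown against proliferating cells, 4 for CDK6 and dual knockdown against NT3, 2 for CDK6 knockdown against NT4, 1 for dual against CCND1 knockdown, 4 for NT4 and CDK4 knockdown against proliferating cells and 3 for CDK4 against CCND1 knockdown. The CCL8 calls among these rest on at most 4 reads in a group. With a mean of at least 100 CCL2 alone was tested. The count was then 1 for NT3, NT4, CCND1, CDK4 and CDK6 knockdown against proliferating cells, NT4 against NT3, CDK6 and dual knockdown against NT3, dual knockdown against NT4, and CDK4, CDK6 and dual against CCND1 knockdown. It was 0 for dual knockdown against proliferating cells, CCND1 knockdown against NT3, CDK6 knockdown against NT4, and CDK6 and dual against CDK4 knockdown. With 1 library left out the counts ran from 1 to 2 for NT4 against NT3, CDK4 and CDK6 against CCND1 knockdown and CDK6 against CDK4 knockdown, from 0 to 1 for CCND1 knockdown against NT4, from 0 to 2 for dual knockdown against NT4 and for the departure with NT3, and at 1 for dual against CCND1 knockdown.

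Changes of sign were seen only in log2 fold changes that were not called. With a pseudocount of 0.1 the departure of CCL20 with NT4 was 0.052. With 1 library left out the ranges were -0.50 to 0.068 for CCL26 in dual knockdown against NT3, -0.24 to 0.14 for CCL2 in CCND1 knockdown against NT3, -0.56 to 0.021 for CCL20 in CCND1 knockdown against NT4, -0.17 to 0.43 for CCL26 in dual against CCND1 knockdown, and -0.0089 to 0.19 for CCL26 in CDK4 knockdown against NT4. The departures with NT4 ran from -0.055 to 0.21 for CCL2 and from -0.96 to 0.24 for CCL20.

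The depth limited CCL5, CCL7 and CCL8 most, with 2, 71 and 8 reads over all 21 libraries.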
